A study of Mus musculus with 18 samples.

Results

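The baseline transcriptomes of 2 mouse ovarian cancer cell lines, ID8 and HM-1, were compared in their control cultures. The comparison used the 3 ID8 control and the 3 HM-1 control libraries, 6 of the 18 libraries of the series, and all genes of the count table. The other libraries came from cultures and intradermal HM-1 tumors, and the series was made to study the loss of Cd276, which encodes the immune checkpoint protein B7-H3. HM-1 is labelled with the hybrid strain B6C3F1 and was grown in MEM alpha. ID8 is labelled C57BL6 and was grown in RPMI 1640, and both media held fetal bovine serum and antibiotics. The genotype of all 6 libraries is labelled control, and what the control cells received is not given in the sources used here. Replicates are labelled biological, but no label says that they were separate cultures or clones, and the p-values here reflect the spread among these 6 libraries alone. Line, strain and medium change together, and their parts in a difference cannot be told apart.

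The ovary is covered by a single layer of surface epithelium that is continuous with the mesothelium of the body cavity. Cells of this layer carry mesothelial genes and the transcription factors WT1 and GATA4 alongside simple-epithelial keratins. ID8 arose from mouse ovarian surface epithelial cells that transformed in culture, and HM-1 is a highly metastatic line from a mouse ovarian tumor. Ovarian carcinomas can also take on mucinous, gut-type differentiation, which is driven by transcription factors such as CDX2 and HNF4A.

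Total counts were 17631035 to 25354150 in HM-1 control and 26325938 to 30959773 in ID8 control libraries. Library 1 of HM-1 control stood apart from libraries 2 and 3, at 71.3 and 69.9 in mean chi-square of their counts over genes. Libraries 2 and 3 were at 1.62 from each other, and pairs of ID8 libraries at 6.16 to 15.1. Of 13732 genes that passed the filter on low counts, 8010 were called, that is, had an adjusted p under 0.05 by edgeR's quasi-likelihood test, adjusted after Benjamini and Hochberg. This share of 58.3% divides into 3951 genes higher in ID8 (28.8%) and 4059 lower in ID8 (29.6%). Counts of called members in each gene list of the control comparison below stand against these shares. Over 2-fold, 2100 genes were higher in ID8 (15.3%) and 2208 lower (16.1%), together 31.4%. The 3 values of one line all lay above the 3 of the other for 9233 genes (67.2%), and the median log2 fold change of all genes tested was -0.01. Without HM-1 control library 1, 10604 genes were called. Levels below are counts per 1000000 counts of the library total (CPM), not corrected for gene length, and are listed in the order of libraries 1, 2 and 3 or given as mean ± SD over n = 3. Log2 fold changes are ID8 minus HM-1. Where one line had no count, its 3 libraries were set to 3 counts in all and the fold is given as a lower bound, and intervals and bounds cover counting error only.

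ID8 and HM-1 differed in many genes of the mesothelial, Hox and gut-type lists, though not in every member. ID8 expressed mesothelial and ovarian surface genes such as Wt1 and Upk3b, HoxA and HoxD genes, the collagen chains Col1a1 and Col5a2, the crosslinker Lox and the chemokine Cxcl12, which were at or near 0 in HM-1. Col5a2 was at 0.773 CPM in ID8 cultures labelled Cd276KO, which the control comparison did not use. HM-1 expressed a gut-type set around Cdx2, Pdx1, Foxa1 and Hnf4a, the laminin and basement membrane genes Lama3, Lamb3, Nid1 and Col18a1, and the neutrophil chemokine Cxcl3. The 14 sterol synthesis enzymes reported were all higher in ID8. Interferon response genes differed in both directions, and no single direction described them.

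**Figure D1:**
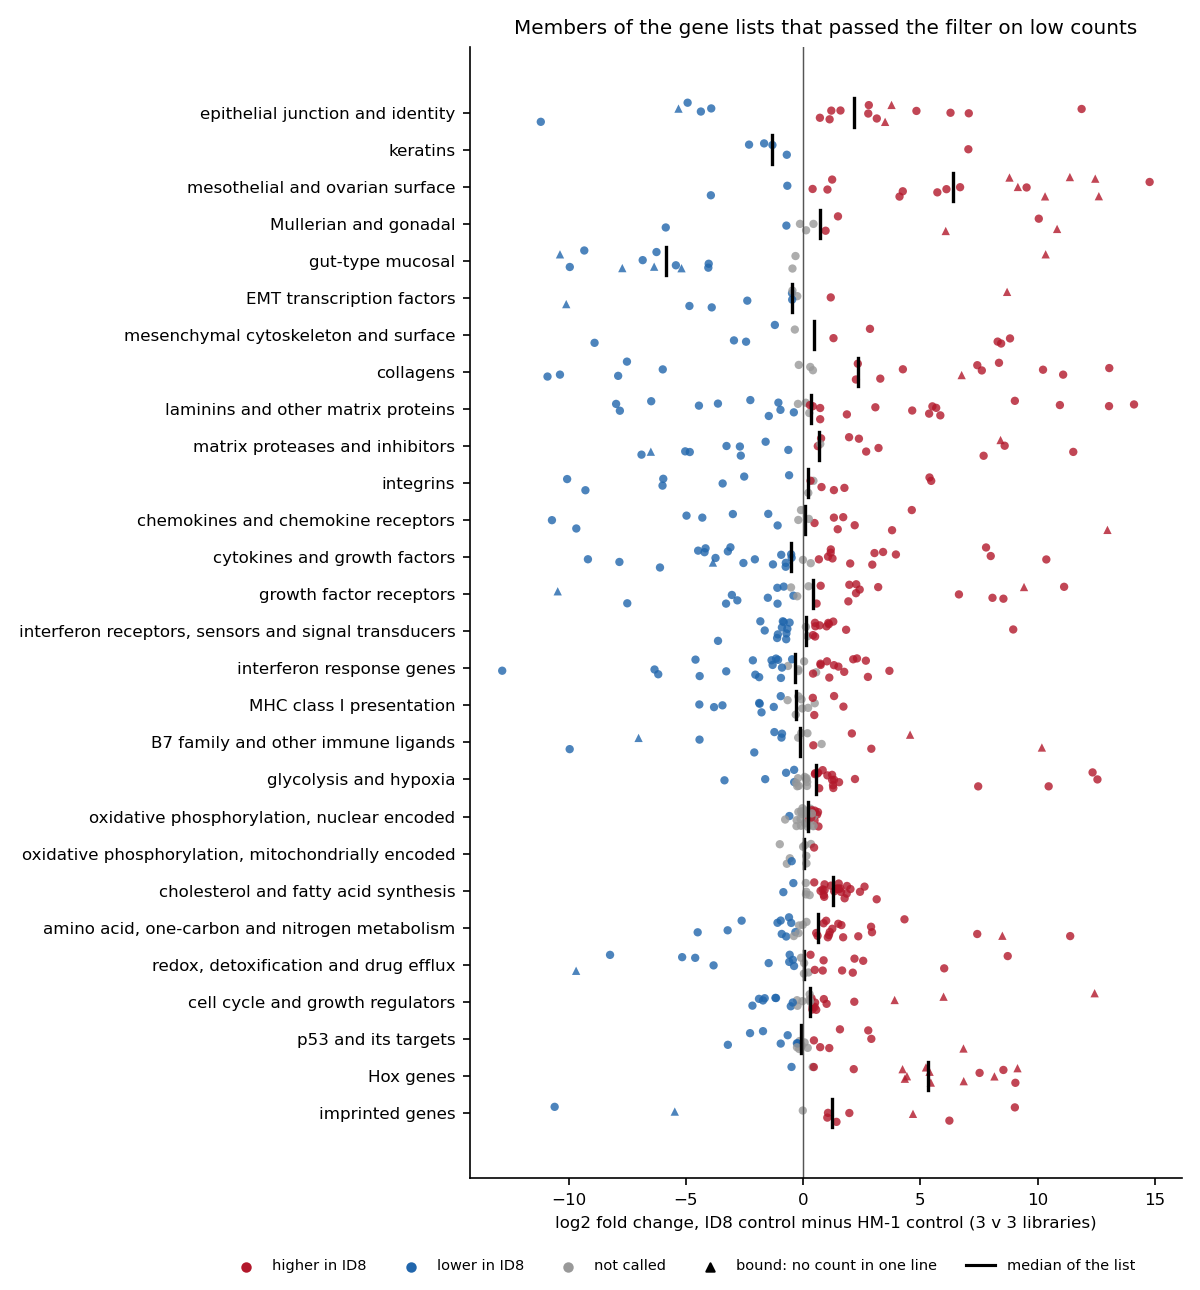
Log2 fold changes (ID8 control minus HM-1 control, horizontal axis) of the members of each gene list that passed the filter on low counts, coloured by call, with triangles for bounds where one line had no count and a black line at the list median with those bounds. The mesothelial, Hox and sterol synthesis lists lie mostly to the right of 0 and the gut-type list to the left, while the interferon, cytokine and integrin lists spread to both sides.

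Some genes were restricted to 1 line. With a mean of at least 10 CPM in one line and at most 3 counts in sum in the other, 212 genes were restricted to ID8 and 120 to HM-1. Protein-coding genes made up 204 and 111 of them. The restricted genes took 1.36% to 1.38% of all counts in ID8 libraries and 0.518% to 0.587% in HM-1 libraries. By CPM the first was Mtap, which encodes the methionine salvage enzyme methylthioadenosine phosphorylase. Mtap was at 0 in all 3 libraries in HM-1 and at 802, 797 and 794 CPM in ID8. Its level in ID8 was at least 17723-fold higher than in HM-1. Mtap (ENSMUSG00000062937.7) lies at chr4:89137122-89181081 on the plus strand of GRCm38. The next annotated protein-coding genes on its downstream side, the cell cycle inhibitors Cdkn2a (chr4:89274471-89294653) and Cdkn2b (chr4:89306299-89311039), had no count in either line.

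The ID8-restricted set went on with 7 other genes. Wt1, the transcription factor of mesothelium, kidney and gonad, was at 0.0567, 0 and 0 CPM in HM-1 and at 550.0, 583 and 586 CPM in ID8. A single count in HM-1 library 1 was the only one in that line, and the ID8 level was 38212 times (95% counting interval 6858 to 1509330) as high. Cxcl12, the ligand of the receptor CXCR4, was at 0 in all 3 libraries in HM-1 and at 371, 357 and 362 CPM in ID8, at least 8061-fold higher in ID8. Lox, a lysyl oxidase that crosslinks collagen, had 1 count in HM-1 and 354, 374 and 356 CPM in ID8. Pkhd1l1 and Sulf1, a sulfatase that edits heparan sulfate, had 3 counts each in HM-1 and 360.0, 311 and 283 CPM and 268, 273 and 283 CPM in ID8. The uroplakin gene Upk3b and the mitochondrial protein gene Chchd10 had no HM-1 count and were at 282, 263 and 303 CPM and at 258, 244 and 331 CPM in ID8. All ID8 values of these genes lay far above all HM-1 values.

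In HM-1 the restricted set was led by Wfdc2, which encodes the secreted ovarian cancer marker HE4. Wfdc2 was at 602, 385 and 402 CPM in HM-1 and at 0 in all 3 libraries in ID8, at least 12665-fold higher in HM-1. Parvb, an adaptor between integrins and actin, was at 175, 226 and 228 CPM in HM-1 and had 2 counts in ID8. Dynap was at 211, 187 and 196 CPM and the extracellular matrix gene Tnr at 74.3, 215 and 216 CPM in HM-1, against 0 and 2 counts in ID8. Nptx1, a secreted pentraxin, and Itih5, a hyaluronan-binding protein, were at 106, 157 and 158 CPM and at 88.5, 163 and 168 CPM in HM-1. The sodium-proton exchanger Slc9a2 and the unnamed gene 3110039M20Rik stood at 122, 136 and 136 CPM and at 161, 101 and 110.1 CPM. In ID8 these 4 genes had no count, apart from 1 count of 3110039M20Rik. HM-1 library 1 had the lowest of the 3 values for Tnr, Nptx1 and Itih5, and still lay far above ID8.

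Genes of at least 50 CPM were ranked by the fitted log2 fold change, a ranking that favours genes with no count in one line. The 10 first in each direction all had no count in the lower line, and Wt1 and Lox, with 1 count there, had larger ratios than the lowest of the bounds given here. Higher in ID8 were Mtap, Cxcl12, Upk3b, Chchd10, the membrane glycoprotein Gpm6a, the cyclin Ccnd2, the receptor phosphatase Ptprf, the bone morphogenetic protein Gdf6, Tmem98 and the transcription factor Sox12, by at least 3152-fold to at least 17723-fold. Higher in HM-1 were Wfdc2, Dynap, Nptx1, Itih5, Slc9a2, Oaf, the receptor phosphatase Ptprz1, the lipid flippase Atp10a, the pancreatic and duodenal factor Pdx1 and the hormone gene Stc1, by at least 2968-fold to at least 12665-fold.

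Epithelial junction genes differed between the lines member by member. The list held 30 genes, of which 18 passed the filter, with 13 higher and 5 lower in ID8 against 28.8% and 29.6% of all genes tested. Their median log2 fold change was 2.18. The desmosomal cadherin Dsg2 was at 0, 0.0394 and 0 CPM in HM-1 and at 76.8, 79.3 and 73.8 CPM in ID8, and its ID8 level was 5117 times (95% counting interval 918 to 202137) as high. Dsc2, its partner in desmosomes, was at 0.0567, 0 and 0.169 CPM in HM-1 and at 10.8, 11.4 and 10.7 CPM in ID8 (log2 fold change 7.06, SE 0.38, adjusted p = 1.67e-06). Cdh1, which encodes E-cadherin, was at 0.0567, 0.0789 and 0.211 CPM in HM-1 and at 10.3, 9.11 and 10.4 CPM in ID8 (log2 fold change 6.28, SE 0.28, adjusted p = 6.14e-07). The 2 lines did not overlap for any of these cadherins, and did not for 67.2% of all genes tested. The tight junction adaptor Cgn was also higher in ID8, at 2.98 ± 0.804 CPM in HM-1 and 88.3 ± 2.87 CPM in ID8 (log2 fold change 4.83, SE 0.17).

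The opposite held for Cldn6, a claudin of embryonic epithelia, at 69.5, 62.2 and 62.5 CPM in HM-1 and at 0, 0.0646 and 0 CPM in ID8. Its HM-1 level was 2722 times (95% counting interval 753 to 22486) as high. Ocln, the tight junction protein occludin, had 94 counts in HM-1 and 0 in ID8, and its HM-1 level was at least 39.8-fold higher. The epithelial transcription factors Elf3 and Grhl2 were also lower in ID8 (log2 fold changes -4.36 and -3.92), while the epithelial splicing factor Esrp2 was higher (3.14). Several defining epithelial genes were near 0 in both lines. Epcam, the epithelial adhesion molecule, had 0 counts in HM-1 and 43 in ID8, which is at least 11.3-fold higher in ID8, and Cldn4 and Cldn7 had at most 2 counts in either line. Of the 12 members too low to test, none had more than 27 counts over the 3 libraries of a line.

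Keratins of simple epithelia were expressed in both lines and higher in HM-1. Krt8 was at 2851, 2440.1 and 2429.8 CPM in HM-1 and at 791, 815 and 899.8 CPM in ID8 (log2 fold change -1.67, SE 0.12, adjusted p = 8.66e-06). Its filament partner Krt18 was at 2203, 1779 and 1748 CPM in HM-1 and at 381, 391 and 421 CPM in ID8 (log2 fold change -2.31, SE 0.13, adjusted p = 2.45e-06). Krt19 was at 1141 ± 103 CPM in HM-1 and 724 ± 62.6 CPM in ID8 (log2 fold change -0.698, SE 0.12, adjusted p = 0.00138). Corrected for gene length, Krt18 was at 1329 RPKM in HM-1 and 277 RPKM in ID8, Krt8 at 1314 RPKM in HM-1 and 427 RPKM in ID8 and Krt19 at 615 RPKM in HM-1 and 390.2 RPKM in ID8. The type III filament gene Vim, of mesenchymal and many cultured cells, was at 1178 RPKM in HM-1 and 525 RPKM in ID8. Both lines thus carried simple-epithelial keratins and vimentin together. Krt14, a keratin of basal epithelia, went the other way, at 0.0567, 0.0789 and 0.0422 CPM in HM-1 and at 8.99, 8.98 and 8.39 CPM in ID8, with 4 counts in HM-1. Of 10 keratins, 5 passed the filter, 1 higher and 4 lower in ID8.

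Nearly all measured mesothelial and ovarian surface genes were higher in ID8. Of 23 genes, 18 passed the filter, and 16 were higher and 2 lower in ID8. Their median log2 fold change was 6.401 and did not change with bounds in place of fitted values. Of the 23 genes, 10 had no count in HM-1, 2 none in ID8 and 2 none in either. Tested genes with no count in HM-1 passed the filter only through ID8, so their direction followed from passing. Upk3b, a uroplakin of mesothelium and bladder, was at least 6249.7-fold higher in ID8, and Gpm6a, a membrane glycoprotein of neurons and mesothelium, at least 5621-fold. Gata4, which specifies the gonadal ridge and mesothelium, was at 0 in all 3 libraries in HM-1 and at 112, 117 and 129.9 CPM in ID8, at least 2655-fold higher in ID8. Bnc1, a zinc finger gene of mesothelium and germ cells, was at 25.7, 26.5 and 24.7 CPM in ID8, and Pdpn, the mucin-like podoplanin, at 61.3, 53.9 and 57.4 CPM. Neither had a count in HM-1.

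Msln, the mesothelin gene, was present in both lines, at 14.5, 12.2 and 12.7 CPM in HM-1 and at 232, 235 and 232 CPM in ID8 (log2 fold change 4.11, SE 0.11, adjusted p = 5.07e-08). All 3 ID8 values lay above the HM-1 values, and Upk1b behaved in the same way, at 7.704 ± 0.586 CPM in HM-1 and 151 ± 6.07 CPM in ID8 (log2 fold change 4.25, SE 0.102). Gata6 was at 0.9004 ± 0.177 CPM in HM-1 and 97.3 ± 3.6 CPM in ID8 (log2 fold change 6.69, SE 0.15) and the mesothelial surface gene Lrrn4 at 0.0131 ± 0.0228 CPM in HM-1 and 15.05 ± 0.977 CPM in ID8, with 1 count in HM-1. Muc16, which encodes the ovarian cancer antigen CA125, was at 0, 0.0789 and 0 CPM in HM-1 and at 2.59, 2.49 and 2.32 CPM in ID8, with 2 counts in HM-1. Efemp1, a fibulin, was the most abundant member in HM-1 by CPM, at 127 ± 4.79 CPM in HM-1 and 173 ± 8.28 CPM in ID8 (log2 fold change 0.403, SE 0.09), and was called higher in ID8. The 2 members lower in ID8 were Lhx9, a factor of the early gonad, at 3.77 ± 0.489 CPM in HM-1 and 0.253 ± 0.217 CPM in ID8 (log2 fold change -3.94, SE 0.42), and Nr2f2 at 44.8 ± 3.72 CPM in HM-1 and 28.9 ± 0.907 CPM in ID8 (log2 fold change -0.68, SE 0.102).

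**Figure D2:**
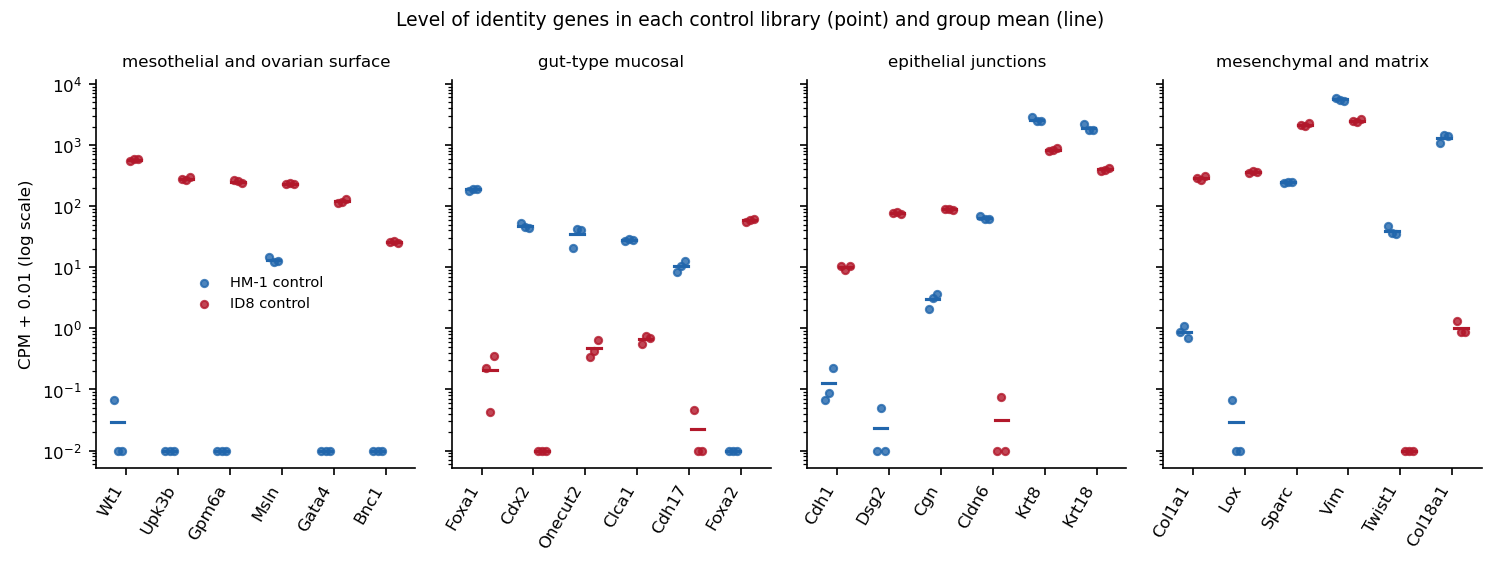
CPM plus 0.01 on a log scale (vertical axis) for 24 genes in each of the 3 HM-1 control and 3 ID8 control libraries (points), with the mean of each line as a horizontal line. Wt1, Upk3b, Gpm6a, Gata4 and Bnc1 lie at or near the bottom of the axis in HM-1, and Cdx2 and Twist1 lie there in ID8. The 2 lines do not overlap for any gene shown, and did not for 67.2% of all genes tested.

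Gonadal and reproductive tract genes were mostly at low levels. Of 21 genes, 10 passed the filter, 5 of them higher and 2 lower in ID8. Inhbb, the inhibin and activin subunit beta B, was at 0 in all 3 libraries in HM-1 and at 79.3, 80.1 and 86.7 CPM in ID8, at least 1819.7-fold higher in ID8. Nr5a1, the steroidogenic factor 1 gene of gonad and adrenal, was at 0, 0.0394 and 0.127 CPM in HM-1 and at 66.5, 68.6 and 76.05 CPM in ID8 (log2 fold change 10.05, SE 0.29), with 4 counts in HM-1. Amhr2, the receptor of anti-Mullerian hormone, was at 9.51 ± 2.06 CPM in HM-1 and 18.9 ± 3.92 CPM in ID8 (log2 fold change 0.96, SE 0.22) and the cholesterol carrier Star at 2.88 ± 0.429 CPM in HM-1 and 8.35 ± 0.488 CPM in ID8 (log2 fold change 1.48, SE 0.14). Esr1, the estrogen receptor, was at 3.43 ± 0.169 CPM in HM-1 and 3.85 ± 0.473 CPM in ID8 and was not called. Pax8, a marker of Mullerian epithelium, had 27 counts in HM-1 and 28 in ID8 and was too low to test, and the progesterone receptor gene Pgr had none in either line.

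Hox genes, which record position along the body axis, were present in ID8 from 3 of the 4 clusters and nearly silent in HM-1 outside HoxC. The list held 39 genes, of which 16 passed the filter, with 14 higher and 1 lower in ID8 and a median log2 fold change of 8.01, or 5.31 with bounds. Of the 39, 27 had no count in HM-1, 15 none in ID8 and 11 none in either. Tested genes with no count in HM-1 passed the filter only through ID8, so their direction followed from passing. The counts and the median describe the list and are not a separate test. Hoxd8 was at 0 in all 3 libraries in HM-1 and at 25.6, 26.6 and 23.8 CPM in ID8, at least 565-fold higher in ID8, and its neighbour Hoxd9 at 0 in all 3 libraries in HM-1 and at 12.5, 13.5 and 12.3 CPM in ID8, at least 285-fold. Hoxc13 was at 0.0567, 0 and 0.0422 CPM in HM-1 and at 17.5, 20.5 and 19.03 CPM in ID8, with 2 counts in HM-1. Hoxa10 was at 8.19, 8.11 and 6.46 CPM in ID8, with 1 count in HM-1. In HM-1 the HoxC members Hoxc6 (8.78 ± 0.968 CPM in HM-1 and 12.3 ± 1.17 CPM in ID8) and Hoxc9 (4.05 ± 0.127 CPM in HM-1 and 2.95 ± 0.307 CPM in ID8) were present. Hoxc6 was called higher and Hoxc9 lower in ID8, and each call was lost without any one of several libraries, HM-1 control library 2 among them for both. The Hoxc9 call was also lost with a replicate block (adjusted p = 0.0586 by edgeR's quasi-likelihood test) and without the filter on low counts (0.0680). No HoxB gene had more than 5 counts in either line.

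Xist, the long noncoding RNA of the inactive X chromosome, was at 0.0567, 0 and 0.0422 CPM in HM-1 and at 249, 252 and 179 CPM in ID8. Its ID8 level was 7614 times (95% counting interval 2108 to 62879) as high, and the Y-linked genes Kdm5d, Uty, Ddx3y and Eif2s3y had no count in either line.

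A gut-type set of genes was present in HM-1. Of 26 genes, 14 passed the filter, with 11 lower and 1 higher in ID8 and a median log2 fold change of -6.55, or -5.84 with bounds. Of the 26, 11 had no count in ID8, 4 none in HM-1 and 3 none in either. Tested genes with no count in 1 line passed the filter only through the other, so their direction followed from passing. Cdx2, the intestinal master transcription factor, was at 53.5, 45.2 and 43.7 CPM in HM-1 and at 0 in all 3 libraries in ID8, at least 1324-fold higher in HM-1. Its neighbour Pdx1, which is outside the list, was at 91.7, 113 and 110.3 CPM in HM-1 and at 0 in all 3 libraries in ID8, at least 3007-fold. Pdx1 lies at chr5:147269959-147275848 on the plus strand and Cdx2 at chr5:147300805-147307270 on the minus strand of GRCm38. Foxa1, a pioneer factor of gut, lung and prostate, was at 179, 191 and 192 CPM in HM-1 and at 0.218, 0.0323 and 0.342 CPM in ID8 (log2 fold change -9.95, SE 0.31, adjusted p = 1.1e-07). None of the ID8 values came near those of HM-1.

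Genes of mucosal epithelial function were also restricted to HM-1 or higher there. Tff1, a secreted trefoil peptide of gastric mucus, was at 9.98, 6.47 and 6.55 CPM in HM-1 and at 0 in all 3 libraries in ID8, at least 209.8-fold higher in HM-1, and Cdh17, the intestinal cadherin, had 1 count in ID8 and was at 8.34, 10.5 and 12.8 CPM in HM-1. Vil1, the microvillus protein villin, was at 7.12 ± 1.65 CPM in HM-1 and 0.0607 ± 0.105 CPM in ID8 (log2 fold change -6.84, SE 0.57). The calcium-activated chloride channel regulators Clca1 and Clca3a1 were at 27.8 ± 1.11 CPM in HM-1 and 0.658 ± 0.101 CPM in ID8 and at 32.9 ± 7.09 CPM in HM-1 and 2.04 ± 0.07102 CPM in ID8, and reads of these similar copies can be split between them. Onecut2 was at 20.9, 42.8 and 40.1 CPM in HM-1 and at 0.328, 0.4199 and 0.646 CPM in ID8 (log2 fold change -6.25, SE 0.37), and HM-1 library 1 had the lowest HM-1 value. The 1 member higher in ID8 was Foxa2, a factor of endoderm and of Mullerian glands, at 0 in all 3 libraries in HM-1 and at 55.7, 58.5 and 61.04 CPM in ID8, at least 1297-fold higher. Mucins were low: Muc1 was at 0.498 ± 0.1204 CPM in HM-1 and 0.379 ± 0.114 CPM in ID8 and was not called, and Muc5ac and Muc13 had at most 7 counts in either line.

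Transcription factor genes of the epithelial-mesenchymal transition differed in both directions. Twist1 was at 47.1, 36.9 and 35.1 CPM in HM-1 and at 0 in all 3 libraries in ID8, at least 1100.2-fold higher in HM-1, and Twist2 at 23.6, 16.2 and 17.6 CPM in HM-1 and at 0.947, 1.71 and 1.25 CPM in ID8 (log2 fold change -3.899, SE 0.25, adjusted p = 4.47e-06). Snai2, or Slug, was at 0 in all 3 libraries in HM-1 and at 19.5, 19.4 and 17.02 CPM in ID8, at least 415-fold higher in ID8, while its relative Snai1 was at 14.4 ± 1.49 CPM in HM-1 and 10.7 ± 0.766 CPM in ID8 (log2 fold change -0.48, SE 0.12) and was called lower in ID8. Zeb2 was higher in ID8 (log2 fold change 1.18, SE 0.24), and Zeb1 was at 32.5 ± 8.85 CPM in HM-1 and 24.3 ± 1.31 CPM in ID8 and was not called. Of 11 genes 10 passed the filter, 2 higher and 6 lower in ID8. Prrx1 was among the genes lower in ID8 (log2 fold change -4.85, SE 0.28).

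Mesenchymal cytoskeleton and surface genes likewise differed in kind, with 5 higher, 4 lower and 1 not called among 10 of 17 genes that passed the filter. Cdh2, or N-cadherin, was at 0.113, 0.158 and 0.169 CPM in HM-1 and at 71.9, 74.5 and 69.2 CPM in ID8 (log2 fold change 8.82, SE 0.15, adjusted p = 2.24e-08). The actin bundler Fscn1 was at 0.397, 0.237 and 0.253 CPM in HM-1 and at 95.8, 103 and 113 CPM in ID8 (log2 fold change 8.44, SE 0.19) and smooth muscle actin, Acta2, at 0.0567, 0.0789 and 0 CPM in HM-1 and at 16.02, 14.3 and 17.9 CPM in ID8, with 3 counts in HM-1 and an ID8 level 355 times (95% counting interval 121 to 1722) as high. HM-1 in turn expressed Tpm2, a tropomyosin, at 205, 157 and 151 CPM in HM-1 and at 0.364, 0.388 and 0.342 CPM in ID8 (log2 fold change -8.896, SE 0.22). S100a4, a calcium-binding protein of motile cells, was at 436 ± 90.9 CPM in HM-1 and 58.2 ± 3.07 CPM in ID8 (log2 fold change -2.95, SE 0.17), the hyaluronan receptor Cd44 at 872 ± 44.9 CPM in HM-1 and 166 ± 9.22 CPM in ID8 (log2 fold change -2.44, SE 0.09) and Vim at 5589 ± 324 CPM in HM-1 and 2492 ± 162 CPM in ID8 (log2 fold change -1.21, SE 0.11). Pdgfra was higher in ID8, at 1.79 ± 0.256 CPM in HM-1 and 13.4 ± 1.23 CPM in ID8 (log2 fold change 2.85, SE 0.15), while the fibroblast genes Thy1 and Fap had no count in either line.

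The lines expressed different collagen chains. Of 20 genes 19 passed the filter, with 11 higher and 5 lower in ID8, against 28.8% and 29.6% of all genes tested. Their median log2 fold change was 2.33. ID8 expressed the fibrillar chain Col1a1 at 0.851, 1.06 and 0.676 CPM in HM-1 and at 293, 269.8 and 315 CPM in ID8 (log2 fold change 8.35, SE 0.18, adjusted p = 2.8e-08), although Col1a2, the partner chain of type I collagen, was only at 0.0782 ± 0.0356 CPM in HM-1 and 0.795 ± 0.283 CPM in ID8. Col5a2 had 1 count in HM-1 and was at 173, 168 and 179.5 CPM in ID8, and Col5a1 was at 8.08 ± 1.82 CPM in HM-1 and 159 ± 4.97 CPM in ID8 (log2 fold change 4.25, SE 0.16). The basement membrane chain Col4a6 had 3 counts in HM-1 and was at 113, 109 and 112 CPM in ID8. Col6a1 and Col6a2, which form type VI collagen, were also higher in ID8, with a log2 fold change of 7.43 for Col6a1 and 1 count of Col6a2 in HM-1 against 24.2, 21.7 and 27.5 CPM in ID8.

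HM-1 instead expressed Col18a1, the source of endostatin, at 1067, 1454 and 1429 CPM in HM-1 and at 1.31, 0.872 and 0.874 CPM in ID8 (log2 fold change -10.37, SE 0.23, adjusted p = 2.97e-08). Col8a1 was at 56.6, 84.8 and 84.5 CPM in HM-1 and at 0, 0.0323 and 0.07597 CPM in ID8, with 3 counts in ID8 and an HM-1 level 2181.9 times (95% counting interval 746 to 10584) as high. Col7a1, the anchoring fibril collagen of stratified epithelia, was at 41.1 ± 4.65 CPM in HM-1 and 0.663 ± 0.04296 CPM in ID8 (log2 fold change -5.99, SE 0.16), and Col5a3 and Col6a3 were also higher in HM-1. The major type IV chains Col4a1 and Col4a2 and the fibrillar chain Col3a1 were expressed in both lines and not called, with log2 fold changes of 0.303, 0.42 and -0.19.

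Matrix glycoproteins and crosslinkers also differed in both directions. Of 35 genes 28 passed the filter, 15 higher and 10 lower in ID8. Fbln2, an elastic fibre protein, was at 0, 0.158 and 0 CPM in HM-1 and at 562, 524 and 597 CPM in ID8 (log2 fold change 13.04, SE 0.36), and Lox was 24125 times (95% counting interval 4329.6 to 952904) as high in ID8 as in HM-1. Its relative Loxl1 was at 0.0272 ± 0.0236 CPM in HM-1 and 70.6 ± 6.46 CPM in ID8, with 2 counts in HM-1. The small proteoglycan Dcn was at 0.113, 0.158 and 0.253 CPM in HM-1 and at 98.3, 98.8 and 99.7 CPM in ID8 (log2 fold change 9.03, SE 0.17) and Sparc, a collagen chaperone, at 242, 253 and 251 CPM in HM-1 and at 2163, 2033 and 2289 CPM in ID8 (log2 fold change 3.08, SE 0.099, adjusted p = 1.06e-07). Thbs1 was at 5.63 ± 1.84 CPM in HM-1 and 267 ± 6.48 CPM in ID8 (log2 fold change 5.51, SE 0.22). In HM-1 the basement membrane linker Nid1 was at 516, 1041 and 1031 CPM in HM-1 and at 3.64, 3.75 and 3.11 CPM in ID8 (log2 fold change -7.98, SE 0.33) and the tenascin Tnc at 252, 448 and 429 CPM in HM-1 and at 4.26, 4.59 and 4.102 CPM in ID8 (log2 fold change -6.48, SE 0.25). The laminin chains Lama3 and Lamb3 of epithelial basement membrane were higher in HM-1, with log2 fold changes of -4.45 and -3.63. Spp1, or osteopontin, was high in both, at 9099 ± 799.8 CPM in HM-1 and 3393 ± 52.6 CPM in ID8 (log2 fold change -1.47, SE 0.11). Fn1, or fibronectin, was at 1277 ± 534 CPM in HM-1 and 1566 ± 138 CPM in ID8 and was not called.

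Proteases divided in a like manner. Of 22 genes 20 passed the filter, 10 higher and 9 lower in ID8, against 28.8% and 29.6% of all genes tested. The collagenase Mmp13 was at 260.4, 262 and 269 CPM in HM-1 and at 2.804, 2.16 and 1.86 CPM in ID8 (log2 fold change -6.89, SE 0.16, adjusted p = 3.05e-08) and the stromelysin Mmp10 at 37.5 ± 5.36 CPM in HM-1 and 1.18 ± 0.181 CPM in ID8 (log2 fold change -5.03, SE 0.18). The urokinase Plau and its receptor Plaur were also higher in HM-1 (-1.601 and -2.699 on the log2 scale). ID8 carried the proteoglycanases Adamts5, at 15.3, 15.6 and 15.3 CPM and at least 342-fold higher, and Adamts1, at 0.256 ± 0.0771 CPM in HM-1 and 103 ± 1.42 CPM in ID8 (log2 fold change 8.59, SE 0.17). Timp3, the matrix-bound metalloprotease inhibitor, had 3 counts in HM-1 and was at 157, 153 and 142 CPM in ID8. Plat, the tissue-type plasminogen activator, was higher in ID8 (2.69).

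Both chains of the hemidesmosomal integrin were higher in HM-1. Itgb4, which binds laminin in hemidesmosomes, was at 124, 204 and 199 CPM in HM-1 and at 3.39, 2.196 and 2.89 CPM in ID8 (log2 fold change -5.998, SE 0.26, adjusted p = 5.16e-07), and its partner Itga6 at 831 ± 205 CPM in HM-1 and 149 ± 6.98 CPM in ID8 (log2 fold change -2.51, SE 0.18). Itga2, a collagen receptor subunit, had 1 count in ID8 and was at 5.73, 11.95 and 12.8 CPM in HM-1. Itgb7, best known from lymphocytes, was at 137, 145 and 139 CPM in HM-1 and at 0.109, 0.129 and 0.152 CPM in ID8 (log2 fold change -10.07, SE 0.15). The fibronectin receptor subunits Itga5 and Itgav were higher in ID8 (log2 fold changes 1.76 and 1.31), as was Itgb8 (5.46). Of 17 integrin genes 15 passed the filter, 6 higher and 7 lower in ID8, against 28.8% and 29.6% of all genes tested.

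Chemokine genes showed different repertoires. Of 30 chemokine and receptor genes 18 passed the filter, 8 higher and 7 lower in ID8, against 28.8% and 29.6% of all genes tested. Cxcl3, which attracts neutrophils through CXCR2, was at 509.9, 386 and 395 CPM in HM-1 and at 0.291, 0.258 and 0.228 CPM in ID8 (log2 fold change -10.71, SE 0.23, adjusted p = 2.8e-08). The related Cxcl15 was at 41.7 ± 4.74 CPM in HM-1 and 1.36 ± 0.241 CPM in ID8 (log2 fold change -4.97, SE 0.17) and Cxcl2 at 2.37 ± 0.539 CPM in HM-1 and 0.121 ± 0.148 CPM in ID8 (log2 fold change -4.301, SE 0.54). Cxcl5 did not follow, at 27.2, 20.9 and 19.01 CPM in HM-1 and at 24.6, 21.5 and 18.7 CPM in ID8, and was not called. Cxcl1 was low in both lines, at 1.08 ± 0.292 CPM in HM-1 and 2.72 ± 0.239 CPM in ID8 (log2 fold change 1.31, SE 0.24). Reads of these similar CXC genes can be split between them.

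Cx3cl1, the membrane-bound fractalkine, was at 91.8 ± 11.99 CPM in HM-1 and 11.8 ± 0.402 CPM in ID8 (log2 fold change -2.998, SE 0.12). The monocyte chemokines Ccl2 and Ccl7 were higher in ID8. Ccl2 was at 18.5, 13.2 and 15.6 CPM in HM-1 and at 52.2, 38.2 and 44.5 CPM in ID8 (log2 fold change 1.47, SE 0.17, adjusted p = 0.000153) and Ccl7 at 0.212 ± 0.0148 CPM in HM-1 and 3.06 ± 0.695 CPM in ID8 (log2 fold change 3.79, SE 0.29). Cxcl16 was at 5.004 ± 1.07 CPM in HM-1 and 23.5 ± 2.898 CPM in ID8 (log2 fold change 2.198, SE 0.18). Ackr3, the scavenger receptor of CXCL12, was at 14.1, 12.4 and 13.5 CPM in HM-1 and had 1 count in ID8, the line with Cxcl12. Cxcr4, the signalling receptor of CXCL12, had no count in either line. The interferon-induced Cxcl10 was at 3.501 ± 0.303 CPM in HM-1 and 3.11 ± 0.511 CPM in ID8 and was not called.

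Cytokine and growth factor genes differed in both directions. Of 41 genes 33 passed the filter, 13 higher and 18 lower in ID8, against 28.8% and 29.6% of all genes tested. Wnt4, a factor of ovary and Mullerian duct development, had 2 counts in HM-1 and was at 45.7, 46.03 and 50.1 CPM in ID8, and Wnt5a was at 0.282 ± 0.113 CPM in HM-1 and 66.3 ± 2.13 CPM in ID8 (log2 fold change 7.800, SE 0.195). Tgfb2 was at 0.284, 0.0789 and 0.296 CPM in HM-1 and at 56.2, 55.8 and 57.8 CPM in ID8 (log2 fold change 7.999, SE 0.24, adjusted p = 8.44e-08) and Tgfb3 at 16.98 ± 1.54 CPM in HM-1 and 271 ± 7.84 CPM in ID8 (log2 fold change 3.96, SE 0.102), while Tgfb1 was higher in HM-1, at 195 ± 9.47 CPM in HM-1 and 23.3 ± 1.899 CPM in ID8 (log2 fold change -3.102, SE 0.105). The macrophage growth factor Csf1 was at 56.6, 73.1 and 70.5 CPM in HM-1 and at 553, 567 and 575 CPM in ID8 (log2 fold change 3.04, SE 0.11, adjusted p = 2.33e-07). HM-1 had the higher levels of the granulocyte and macrophage factor Csf2, at 6.66 ± 0.769 CPM in HM-1 and 0.0954 ± 0.0439 CPM in ID8 (log2 fold change -6.11, SE 0.28), and of the placental growth factor Pgf (log2 fold change -7.84). Fgf1 had 2 counts in ID8 and was at 14.3, 16.6 and 17.3 CPM in HM-1. Il1rn, the antagonist of interleukin-1, was at 1246 ± 8.17 CPM in HM-1 and 307 ± 7.29 CPM in ID8 (log2 fold change -2.06, SE 0.08).

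Receptors of these factors differed along with ligands. Egfr was at 0.1702, 0.237 and 0.718 CPM in HM-1 and at 113, 111 and 102 CPM in ID8 (log2 fold change 8.07, SE 0.29, adjusted p = 2.11e-07). The EGFR ligands Areg and Hbegf were higher in HM-1, as Areg was at 161 ± 20.8 CPM in HM-1 and 9.24 ± 0.962 CPM in ID8 (log2 fold change -4.16, SE 0.15) and Hbegf at 175 ± 2.799 CPM in HM-1 and 13.5 ± 0.943 CPM in ID8 (log2 fold change -3.74, SE 0.097). Fgfr1 had 2 counts in HM-1 and was at 80.4, 78.2 and 82.05 CPM in ID8, Fgfr2 likewise had 2 counts and 13.4, 13.6 and 13.03 CPM, and Mst1r had no count in HM-1 and 30.1, 30.2 and 32.3 CPM in ID8. Tgfbr3, the betaglycan co-receptor, was at 34.9, 56.5 and 54.7 CPM in HM-1 and at 0 in all 3 libraries in ID8, at least 1416-fold higher in HM-1, and Tgfbr1 was higher in ID8 (2.26). Axl was expressed in both, at 1057 ± 191 CPM in HM-1 and 506 ± 10.8 CPM in ID8 (log2 fold change -1.101, SE 0.13). Of 30 receptor genes 26 passed the filter, 13 higher and 10 lower in ID8, against 28.8% and 29.6% of all genes tested.

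Interferon signalling starts when the receptors IFNAR and IFNGR activate JAK kinases and transcription factors such as STAT2 and IRF9, whose complex binds GAAA repeats in the promoters of response genes. Stat2 and 3 receptor chains were higher in ID8, and both adaptors, Mavs and Tmem173, were higher in HM-1. Of 27 genes 25 passed the filter, 11 higher and 12 lower in ID8. Stat2 was at 5.84, 6.94 and 7.605 CPM in HM-1 and at 24.6, 26.5 and 23.9 CPM in ID8 (log2 fold change 1.83, SE 0.11, adjusted p = 3.64e-06). Ifnar1, Ifnar2, Ifngr2 and Irf1 were also higher in ID8 (log2 fold changes 0.52, 0.997, 1.07 and 1.098). Ifih1, the RNA sensor MDA5, had 1 count in HM-1 and was at 10.8, 10.01 and 9.69 CPM in ID8. Tmem173, which encodes the DNA-sensing adaptor STING, was at 139, 132 and 136 CPM in HM-1 and at 39.1, 38.3 and 40.7 CPM in ID8 (log2 fold change -1.83, SE 0.09, adjusted p = 7.86e-07), and the feedback inhibitor Socs1 at 6.64 ± 0.405 CPM in HM-1 and 0.552 ± 0.221 CPM in ID8 (log2 fold change -3.63, SE 0.26). The kinase Jak2 and the DNA sensor Cgas were lower in ID8 (-1.08 and -0.91). Ifnb1 had no count in either line.

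Among the response genes themselves the directions were mixed. Of 41 genes 34 passed the filter, 13 higher, 16 lower and 5 not called, with a median log2 fold change of -0.34, against -0.01 for all genes tested. Ifitm1, a membrane protein that blocks viral entry, was at 782, 536 and 538 CPM in HM-1 and at 0.109, 0.129 and 0 CPM in ID8 (log2 fold change -12.83, SE 0.403, adjusted p = 1.07e-07). Ly6e was at 1923, 1440.2 and 1436 CPM in HM-1 and at 19.6, 21.1 and 20.5 CPM in ID8 (log2 fold change -6.34, SE 0.18, adjusted p = 6.36e-08), and Lgals3bp at 392 ± 23.5 CPM in HM-1 and 5.56 ± 0.436 CPM in ID8 (log2 fold change -6.18, SE 0.11). Usp18, which removes ISG15, was at 7.46 ± 0.4605 CPM in HM-1 and 0.358 ± 0.0912 CPM in ID8 (log2 fold change -4.41, SE 0.204). Oas3, an RNA-activated synthetase, was at 4.82 ± 0.367 CPM in HM-1 and 0.201 ± 0.0238 CPM in ID8 (log2 fold change -4.59, SE 0.21) and the antiviral Rsad2 at 1.72 ± 0.559 CPM in HM-1 and 0.403 ± 0.0427 CPM in ID8 (log2 fold change -2.14, SE 0.303).

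Of 5 guanylate-binding and immunity-related GTPases that passed the filter, which respond to interferon gamma, Gbp2, Gbp3, Igtp and Irgm1 were higher in ID8 and Gbp7 was not called. The Igtp call was lost under DESeq2 (adjusted p = 0.0613), without HM-1 control library 2 and without ID8 control library 1. Gbp2 was at 0.851, 0.7099 and 0.803 CPM in HM-1 and at 5.83, 5.46 and 5.17 CPM in ID8 (log2 fold change 2.76, SE 0.16, adjusted p = 2.59e-06), Irgm1 at 3.35, 3.35 and 3.55 CPM in HM-1 and at 17.1, 18.8 and 15.9 CPM in ID8 (log2 fold change 2.29, SE 0.11, adjusted p = 9.62e-07) and Gbp3 at 0.421 ± 0.119 CPM in HM-1 and 1.46 ± 0.254 CPM in ID8 (log2 fold change 1.75, SE 0.28). Oasl2 was at 0.7998 ± 0.164 CPM in HM-1 and 10.7 ± 0.564 CPM in ID8 (log2 fold change 3.68, SE 0.17) while its relative Oasl1 was at 22.6 ± 1.03 CPM in HM-1 and 6.33 ± 0.591 CPM in ID8 (log2 fold change -1.88, SE 0.12). Ifit2 was higher in ID8 (log2 fold change 2.67, SE 0.16) and Ifit1 lower (log2 fold change -1.302, SE 0.24), and Isg15 was at 2.01 ± 0.662 CPM in HM-1 and 3.43 ± 0.522 CPM in ID8 (log2 fold change 0.75, SE 0.26). The Isg15 call was lost without HM-1 control library 2 or 3 and without ID8 control library 1 or 3, and under upper-quartile scaling (adjusted p = 0.0538 by edgeR's quasi-likelihood test). Ifit, Oas and Gbp genes are families of similar copies, and their reads can be split between members.

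**Figure D3:**
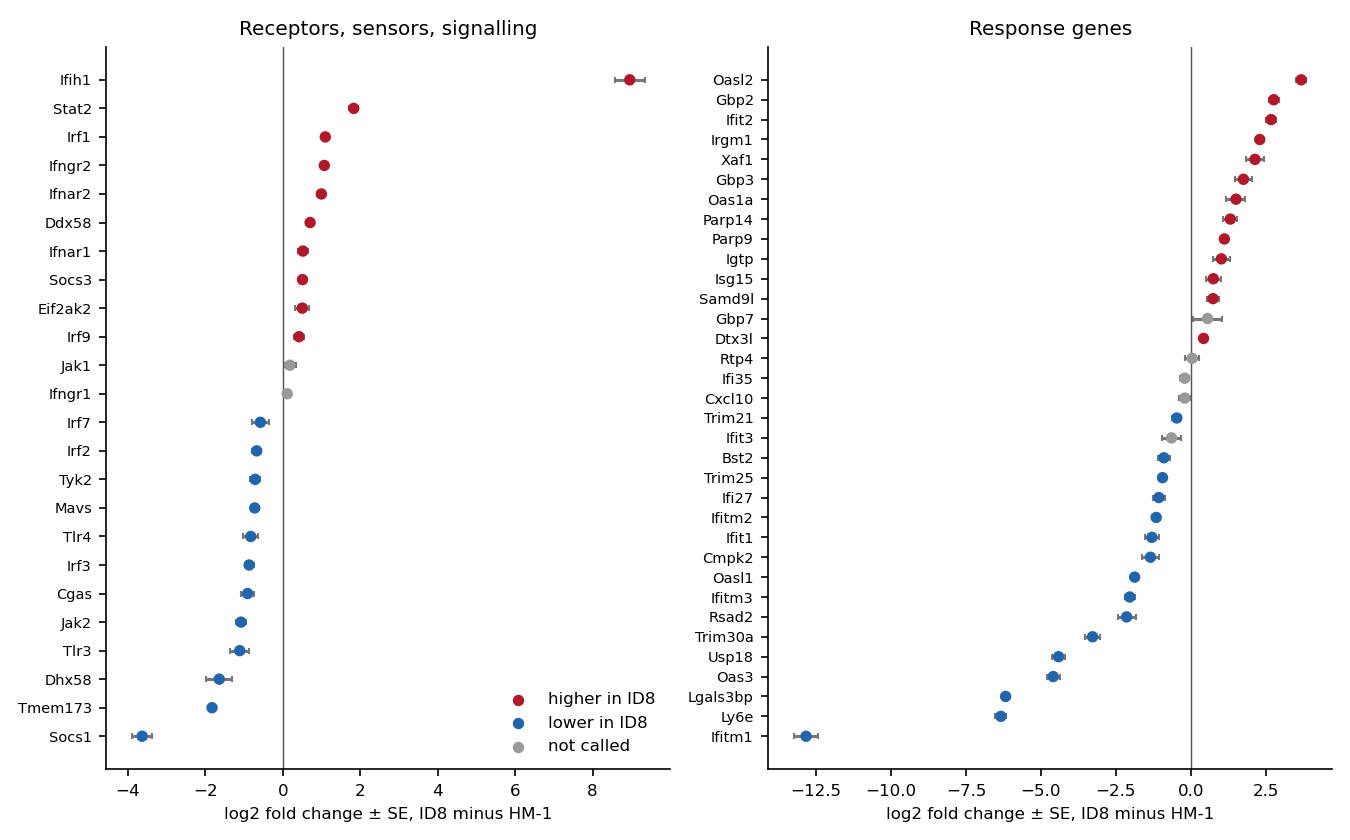
Log2 fold change ± SE (horizontal axis, ID8 control minus HM-1 control, 3 libraries each) of reported interferon receptors, sensors and signalling genes on the left and of interferon response genes on the right, coloured by call. Stat2 and Irf1 lie to the right of 0 and Tmem173 and Socs1 to the left, and the response genes run from -12.83 for Ifitm1 to 3.68 for Oasl2.

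Promoter sequences of response genes that were lower and of ones that were higher in ID8 are set out here because both groups held the same motif. Windows ran from 250 bases before to 50 bases after the start in RefSeq models (GRCm38.p6), and 30 of the 41 genes matched one by symbol. The letters GAAA, any 2 bases and GAAA again, searched on both strands, were found in 18 of these 30 (60%), against 3.99% of 27025 genes with a promoter of the same length. They were in 8 of 13 genes lower in ID8 (61.5%) in 6 of 11 higher in ID8 (54.5%) and in 3 of 4 that were not called (75%). The search was made after the fold changes were seen, and 3 other motifs were searched at the same time, as given with the sterol genes. A match is a description of the letters only. Each stretch lies before the start and reads 5′ to 3′ on the gene's strand, with every match in capitals, so that a match on the other strand begins and ends with TTTC, and overlapping matches run together. Oas3 is from chr5:120777685-120777774 (minus strand), Rsad2 from chr12:26456523-26456612 (minus strand) and Ifit1 from chr19:34640764-34640853 (plus strand), all lower in ID8. Gbp2 is from chr3:142620564-142620653 (plus strand), Irgm1 from chr11:48871421-48871484 (minus strand) and Isg15 from chr4:156200835-156200924 (minus strand), all higher in ID8.
Oas3: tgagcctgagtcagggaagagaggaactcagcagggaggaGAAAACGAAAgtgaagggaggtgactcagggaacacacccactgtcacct
Rsad2: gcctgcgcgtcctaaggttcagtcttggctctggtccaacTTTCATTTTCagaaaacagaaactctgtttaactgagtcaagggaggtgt
Ifit1: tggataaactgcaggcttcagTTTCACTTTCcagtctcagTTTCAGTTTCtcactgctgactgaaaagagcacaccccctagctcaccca
Gbp2: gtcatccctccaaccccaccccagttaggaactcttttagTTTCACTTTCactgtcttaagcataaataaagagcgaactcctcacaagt
Irgm1: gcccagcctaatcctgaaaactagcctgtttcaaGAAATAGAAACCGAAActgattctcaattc
Isg15: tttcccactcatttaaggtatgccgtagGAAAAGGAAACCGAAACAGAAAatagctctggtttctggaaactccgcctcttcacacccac

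The class I heavy chain genes H2-K1, H2-D1, H2-T23 and H2-Q4, the light chain gene and both peptide transporter genes were lower in ID8, and the heavy chain gene H2-T22 was higher (log2 fold change 0.47, SE 0.12). H2-K1 was at 480.0, 396 and 383 CPM in HM-1 and at 39.98, 36.3 and 43.04 CPM in ID8 (log2 fold change -3.44, SE 0.14, adjusted p = 3.85e-07) and H2-D1 at 298 ± 52.2 CPM in HM-1 and 85.02 ± 5.48 CPM in ID8 (log2 fold change -1.85, SE 0.15). The lines differ in labelled strain, and reads of H2 genes depend on the allele and on similar copies, so these values are uncertain. B2m, the invariant light chain, was at 977, 722 and 721 CPM in HM-1 and at 248, 242 and 239 CPM in ID8 (log2 fold change -1.78, SE 0.15, adjusted p = 2.11e-05), and Nlrc5, the class I transactivator, at 9.47, 14.8 and 12.7 CPM in HM-1 and at 0.947, 0.937 and 0.836 CPM in ID8 (log2 fold change -3.800, SE 0.202, adjusted p = 1.54e-06). The peptide transporter genes Tap1 and Tap2 were lower in ID8 (-0.96 and -1.88). Tapbp and Calr, which load peptide, were higher (1.72 and 1.32). Of 20 genes 19 passed the filter, 4 higher and 8 lower in ID8.

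Cd276 itself was at 74.2, 93.5 and 91.5 CPM in HM-1 and at 21.1, 21.1 and 20.6 CPM in ID8 (log2 fold change -2.09, SE 0.11, adjusted p = 1.13e-06), and every HM-1 value lay above every ID8 value. On GRCm38 Cd276 (ENSMUSG00000035914.11) is at chr9:58524298-58555437. Among the other immune ligands, Cd38, an ectoenzyme that consumes NAD, was at 80.99, 83.02 and 89.7 CPM in HM-1 and at 0.0728, 0.0969 and 0.07597 CPM in ID8 (log2 fold change -9.96, SE 0.16). Cd274, which encodes PD-L1, was at 2.09 ± 0.496 CPM in HM-1 and 0.919 ± 0.07102 CPM in ID8 (log2 fold change -1.23, SE 0.22). Nectin2, a ligand of the lymphocyte receptors DNAM-1 and TIGIT, was at 63.3 ± 3.57 CPM in HM-1 and 275 ± 21.1 CPM in ID8 (log2 fold change 2.08, SE 0.11), and Cd55, which protects cells from complement, had no count in HM-1 and 55.8, 50 and 51.1 CPM in ID8, at least 1160.1-fold higher. The death receptor Fas was at 2.11 ± 0.348 CPM in HM-1 and 16.2 ± 1.59 CPM in ID8 (log2 fold change 2.91, SE 0.16). Of 29 genes 16 passed the filter, 5 higher and 7 lower in ID8, and Cd47 and Lgals1 were not called.

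The 14 enzymes of sterol synthesis reported here, from Hmgcs1 to Dhcr7, were all called higher in ID8. The list of 29 cholesterol and fatty acid genes had 28 that passed the filter, 22 higher and 2 lower in ID8, against 28.8% and 29.6% of all genes tested, with a median log2 fold change of 1.25. Hmgcs1, the synthase at the entry of the pathway, was at 66.3, 69.2 and 65.8 CPM in HM-1 and at 430.1, 436 and 405 CPM in ID8 (log2 fold change 2.62, SE 0.08, adjusted p = 1.04e-07). Fdps, which makes farnesyl diphosphate, was at 32.7 ± 5.94 CPM in HM-1 and 122.99 ± 0.998 CPM in ID8 (log2 fold change 1.87, SE 0.14) and Cyp51, which demethylates lanosterol, at 75.6 ± 0.742 CPM in HM-1 and 282 ± 8.23 CPM in ID8 (log2 fold change 1.86, SE 0.08).

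The regulators Srebf2 and Insig1 were higher in ID8 (log2 fold changes 0.83 and 1.43). Fatty acid genes did not move as a block. The desaturases Scd2, Fads1 and Fads2 were higher, with Fads2 at 23.3, 38.2 and 38.9 CPM in HM-1 and at 289.7, 296 and 322 CPM in ID8 (log2 fold change 3.14, SE 0.19, adjusted p = 3.34e-06) and Scd2 at 745 ± 158 CPM in HM-1 and 4107 ± 217 CPM in ID8 (log2 fold change 2.42, SE 0.16). Fasn, the fatty acid synthase, was lower, at 423 ± 132 CPM in HM-1 and 242 ± 15.5 CPM in ID8 (log2 fold change -0.84, SE 0.21, adjusted p = 0.0102), and the call was lost without the filter on low counts, unlike those of the 14 sterol enzymes. Srebf1, Acaca, Elovl6 and Scd1 were not called. Of 19 sterol and fatty acid genes with a RefSeq promoter, only Hmgcs1 held CACCCCAC (5.26%, against 3.30% of all promoters), and none held the longer form with AT in front of it (0.0999% of all), TCANNTGA (9.56% of all) or the paired GAAA. Of the 30 interferon response promoters 1 held CACCCCAC, and none held the longer form or TCANNTGA.

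**Figure D4:**
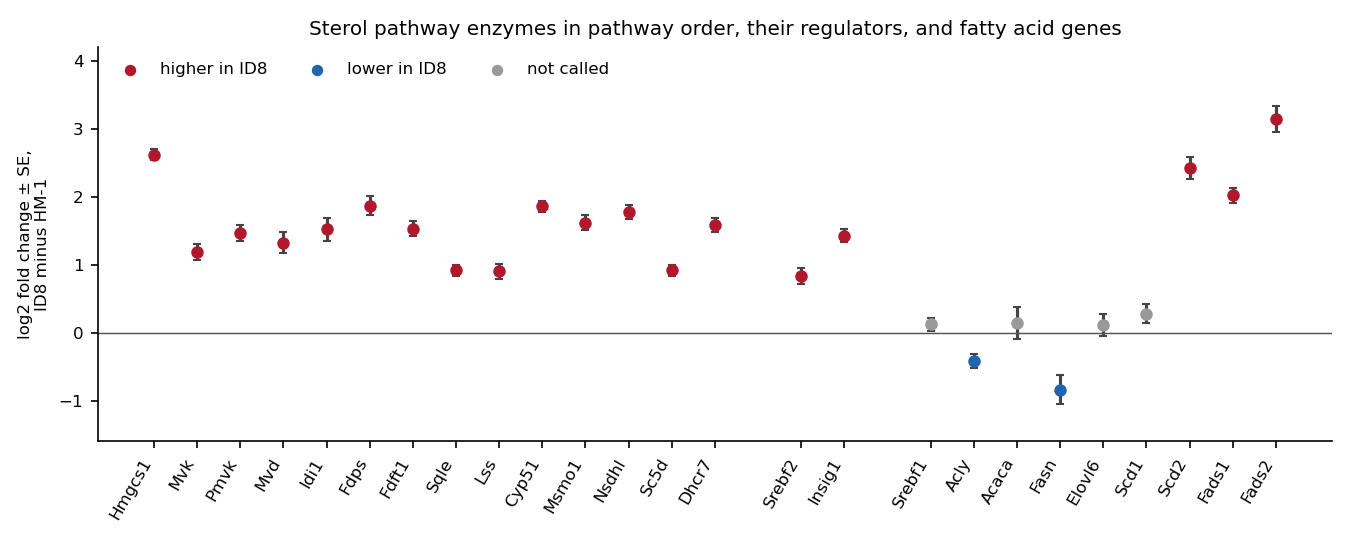
Log2 fold change ± SE (vertical axis, ID8 control minus HM-1 control, 3 libraries each) of 14 sterol enzymes in pathway order from Hmgcs1 to Dhcr7, then 2 regulators, then fatty acid genes, coloured by call. The 14 enzymes all lie above 0, between 0.90 for Lss and 2.62 for Hmgcs1, while the fatty acid genes run from -0.84 for Fasn to 3.14 for Fads2.

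Of 32 glycolysis and hypoxia genes 18 were higher and 5 lower in ID8, against 28.8% and 29.6% of all genes tested. Their median log2 fold change was 0.56. Gapdh was at 2028, 1779 and 1781 CPM in HM-1 and at 4357, 4488 and 5187 CPM in ID8 (log2 fold change 1.29, SE 0.12, adjusted p = 4.81e-05), Tpi1 at 609.9 ± 79.97 CPM in HM-1 and 1476 ± 92.3 CPM in ID8 (log2 fold change 1.23, SE 0.13) and Pgk1 at 534 ± 64.7 CPM in HM-1 and 1372 ± 36.8 CPM in ID8 (log2 fold change 1.32, SE 0.12). The largest differences were those of Ldhb, Car12 and Slc2a3. Ldhb, the heart-type lactate dehydrogenase subunit, had 1 count in HM-1 and was at 125, 109 and 132 CPM in ID8, while Ldha was at 1476 ± 166 CPM in HM-1 and 1712 ± 82.2 CPM in ID8 and was not called. The glucose transporter Slc2a3 had 1 count in HM-1 and was at 28.7, 29.8 and 28.2 CPM in ID8, while Slc2a1 was not called (-0.19). The lactate exporter Slc16a3 was at 0.3502 ± 0.0421 CPM in HM-1 and 63.5 ± 4.03 CPM in ID8 (log2 fold change 7.46, SE 0.16) and the carbonic anhydrase Car12 had 2 counts in HM-1 and 182, 184 and 191 CPM in ID8. Pfkfb4 was lower in ID8 (log2 fold change -3.36, SE 0.14). Without HM-1 control library 1, 20 genes were higher and 8 lower. In libraries labelled Cd276KO, 17 of the 32 were higher and 14 lower in ID8, with a median log2 fold change of 0.33, where 83.7% of all genes tested were called. Of 22 members called in both comparisons, 18 had the same direction.

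Of 43 nuclear oxidative phosphorylation genes 40 passed the filter, and 9 were higher and 1 lower in ID8, against 58.3% of all genes tested called, with a median log2 fold change of 0.195. That count depended on HM-1 control library 1, without which 31 were higher and 1 lower. In libraries labelled Cd276KO, 37 of 40 were higher and 3 lower in ID8, where 83.7% of all genes tested were called. Ndufs8, a complex I subunit, was at 63.9 ± 13.4 CPM in HM-1 and 104 ± 12.3 CPM in ID8 (log2 fold change 0.65, SE 0.17), and its call was lost without ID8 control library 3. Of 13 mitochondrially encoded genes 10 passed, 1 higher and 1 lower, and without HM-1 control library 1 none was called in either direction.

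Amino acid and one-carbon genes differed in both directions. Of 35 genes 33 passed the filter, 18 higher and 10 lower in ID8, against 28.8% and 29.6% of all genes tested. Their median log2 fold change was 0.61. Atf4 was at 433, 332 and 329 CPM in HM-1 and at 789.8, 823 and 805 CPM in ID8 (log2 fold change 1.099, SE 0.13, adjusted p = 0.00021). Asns, Trib3 and Chac1 were higher in ID8 at log2 fold changes of 1.24, 2.896 and 4.32, and the serine synthesis genes Psph and Psat1 at 2.35 and 0.98. Phgdh, the first enzyme of serine synthesis, was at 399 ± 60.2 CPM in HM-1 and 454 ± 33.9 CPM in ID8 and was not called, and the glutamine transporter gene Slc1a5 was lower in ID8 (log2 fold change -0.33, SE 0.09), a call that was lost without the filter on low counts and without any one library but HM-1 control library 1. No list of ATF4 targets was tested. Nnmt, which methylates nicotinamide, had no count in HM-1 and 16.3, 15.6 and 16.9 CPM in ID8, at least 361-fold higher, and the branched-chain transaminase Bcat1 had 1 count in HM-1 and 56.4, 54.5 and 52.95 CPM in ID8. HM-1 had more of Cth, the enzyme that makes cysteine from cystathionine, at 7.11 ± 0.818 CPM in HM-1 and 0.321 ± 0.0557 CPM in ID8 (log2 fold change -4.499, SE 0.21), and of glutamine synthetase, Glul, at 111 ± 7.09 CPM in HM-1 and 18.5 ± 0.901 CPM in ID8 (log2 fold change -2.62, SE 0.096).

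Drug-metabolising and efflux genes differed by paralog. Cyp1a1 was at 29.6, 27.4 and 30.5 CPM in HM-1 and at 0 in all 3 libraries in ID8, at least 822-fold higher in HM-1, while Cyp1b1, a related enzyme under the same aryl hydrocarbon receptor, was at 9.07, 13.6 and 12.9 CPM in HM-1 and at 789.8, 819 and 766 CPM in ID8 (log2 fold change 6.01, SE 0.16, adjusted p = 5.78e-08). The P-glycoprotein genes Abcb1a and Abcb1b were at 36.1 ± 8.07 CPM in HM-1 and 0.123 ± 0.0813 CPM in ID8 and at 159 ± 34.3 CPM in HM-1 and 6.71 ± 0.791 CPM in ID8 (log2 fold changes -8.24 and -4.604). The other main efflux pump, Abcg2, was at 0.567, 0.276 and 0.169 CPM in HM-1 and at 142, 141 and 136 CPM in ID8 (log2 fold change 8.72, SE 0.24). The glutathione transferase Gstm1 was lower and Gsta4 higher in ID8 (-3.82 and 2.56), and the regulator Nfe2l2 was not called (0.04). Of 27 genes 24 passed the filter, 10 in each direction, against 28.8% higher and 29.6% lower in ID8 among all genes tested.

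Cyclin D genes differed by paralog. Ccnd2 was at 0 in all 3 libraries in HM-1 and at 253, 259.8 and 229.5 CPM in ID8, at least 5518-fold higher in ID8, and Ccnd1 was at 610.3, 931 and 931 CPM in HM-1 and at 232, 235 and 221 CPM in ID8 (log2 fold change -1.88, SE 0.16, adjusted p = 2.36e-05). Hmga2 was at 475 ± 55.7 CPM in HM-1 and 109 ± 13.8 CPM in ID8 (log2 fold change -2.16, SE 0.12), Myc at 289 ± 0.0636 CPM in HM-1 and 131 ± 4.22 CPM in ID8 (log2 fold change -1.18, SE 0.08) and the inhibitor Cdkn2c at 21.01 ± 1.69 CPM in HM-1 and 97.95 ± 3.15 CPM in ID8 (log2 fold change 2.18, SE 0.100). The proliferation genes Mki67 and Top2a were not called (0.26 and 0.29). Of 30 genes 26 passed the filter, 12 higher and 8 lower in ID8, against 28.8% and 29.6% of all genes tested.

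Among 20 genes of p53 and its targets 7 were higher and 7 lower in ID8, against 28.8% and 29.6% of all genes tested. Trp53 was at 247 ± 8.73 CPM in HM-1 and 229 ± 7.38 CPM in ID8 and was not called, and gene-level counts do not show whether it carries a mutation. Cdkn1a, the p21 inhibitor, was at 283, 249.5 and 262 CPM in HM-1 and at 81.1, 82.9 and 85.5 CPM in ID8 (log2 fold change -1.71, SE 0.09, adjusted p = 1.73e-06) and Gdf15 at 10.1 ± 0.958 CPM in HM-1 and 1.11 ± 0.234 CPM in ID8 (log2 fold change -3.21, SE 0.18). Pmaip1, which encodes NOXA, had no count in HM-1 and 5.24, 6.17 and 3.84 CPM in ID8, at least 114-fold higher, and Perp was at 15.97 ± 2.2 CPM in HM-1 and 112 ± 1.68 CPM in ID8 (log2 fold change 2.78, SE 0.13).

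Imprinted genes, which are expressed from 1 parental copy, were mostly too low to test. Of 28 genes 10 passed the filter, 7 higher and 2 lower in ID8, and Igf2, H19, Dlk1 and Meg3 had at most 2 counts in either line. Phlda2, a growth-limiting gene of placenta, was at 30.5, 22.5 and 23.03 CPM in HM-1 and at 0, 0 and 0.03799 CPM in ID8, with 1 count in ID8. Igf2r was at 39.3 ± 13.4 CPM in HM-1 and 158 ± 12.6 CPM in ID8 (log2 fold change 1.97, SE 0.24).

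Few of the listed markers of other cell types passed the filter. The lists do not hold all such genes. Outside them, Cd34 was at 38.6 CPM and Cd53 at 26.0 CPM in HM-1, with no count in ID8. Other HM-1-restricted genes best known from blood cells were Cytip at 63.9, Lilr4b at 21.5 and Gzme at 17.5 CPM. Syt7 at 112 and Rims2 at 33.1 CPM are best known from nerve cells. Each had at most 3 counts in ID8. These are examples, and no count of such genes is given for either line. Of 20 leukocyte genes, Cd14 (61.7 ± 10.4 CPM in HM-1 and 3.69 ± 0.259 CPM in ID8) and Cd68 (5.82 ± 0.138 CPM in HM-1 and 2.54 ± 0.237 CPM in ID8) alone passed the filter, and Ptprc, Cd3e and Itgam had at most 4 counts in either line. Of 11 endothelial and pericyte genes 3 passed, with Pecam1 at 3.48 ± 0.193 CPM in HM-1 and 1.27 ± 0.295 CPM in ID8, Cdh5 at 0.509 ± 0.0437 CPM in HM-1 and 0 in ID8 and Esam at 0.121 ± 0.146 CPM in HM-1 and 26.03 ± 1.24 CPM in ID8, and Emcn and Cldn5 had none. Of 11 erythroid, muscle, fat and nerve genes 3 passed, among them Snap25, a synaptic protein, at 15.9 ± 1.33 CPM in HM-1 and 0.537 ± 0.102 CPM in ID8.

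The same line difference was measured in libraries that the control comparison did not use, the 3 HM-1 and 3 ID8 cultures labelled Cd276KO. There 11005 of 13143 genes were called (83.7%), of which 2569 were lower in ID8 by over 2-fold (19.5%). Of 12929 genes tested in both comparisons, 6746 were called in both, which is 90.3% of the control calls and 62.3% of the calls among libraries labelled Cd276KO, and 6236 of them (92.4%) had the same direction. Of 3777 genes called over 2-fold in controls, 3529 were called in the same direction, 87 in the opposite direction and 161 were not called. Wt1, Upk3b, Cdx2 and Mtap held their pattern in these libraries, but not all identity genes did. Wt1 was at 0.0477, 0 and 0.0516 CPM in HM-1 and at 663, 667 and 686 CPM in ID8. Upk3b was at 0, 0.0512 and 0.0516 CPM in HM-1 and at 934, 995 and 941 CPM in ID8. Cdx2 was at 109, 111 and 107 CPM in HM-1 and at 0 in all 3 libraries in ID8. Mtap was at 0 in all 3 libraries in HM-1 and at 1087, 1102 and 1067 CPM in ID8. In ID8, Col5a2 was at a mean of 173 CPM in controls and 0.773 CPM in libraries labelled Cd276KO, and Cxcl12 at 363 and 67.6 CPM. Cxcl12 still had no HM-1 count. Of 20 collagen genes 17 passed the filter in libraries labelled Cd276KO, 9 higher and 8 lower in ID8. Of the line-restricted genes, 106 of 212 in ID8 and 86 of 120 in HM-1 met the same rule. Cd276 was at 47.2, 47.7 and 44.8 CPM in HM-1 and at 18.3, 18.8 and 21.01 CPM in ID8 (log2 fold change -1.29, SE 0.07, adjusted p = 1.37e-19), so the libraries labelled Cd276KO still held counts of the gene in both lines, and which part of the gene was targeted is not visible in counts per gene.

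The difference between the 2 line contrasts was tested as an interaction over the 12 culture libraries, and 5747 of 14208 genes were called (40.4%). The 3 most extreme genes in each direction, of at least 20 CPM, were near 0 in the Cd276KO-labelled libraries of one line. Ckap4, which anchors the rough endoplasmic reticulum to microtubules, was at 109.9, 103 and 107 CPM in HM-1 and at 65.6, 68.2 and 69.8 CPM in ID8 in controls and at 0 in all 3 libraries in HM-1 and at 63.7, 65.97 and 69.6 CPM in ID8 in libraries labelled Cd276KO. The desmosomal Perp was at 18.5, 15.03 and 14.4 CPM in HM-1 controls and 0 in all 3 libraries labelled Cd276KO, and Trim44 at 27.7, 38.7 and 39.2 CPM and 0.0477, 0 and 0.0516 CPM. In ID8, Rnf219 was at 4.33, 4.81 and 4.18 CPM in controls and 0 in all 3 libraries labelled Cd276KO, Ly6e at 19.6, 21.1 and 20.5 CPM and 0.0373, 0.0356 and 0 CPM, and Col5a2 at 173, 168 and 179.5 CPM and 0.709, 0.676 and 0.932 CPM.

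Of 404 list members called in both contrasts, 25 had opposite directions, against 510 of 6746 among all genes called in both. Interferon response genes were 7 of these, out of 24 called in both. In libraries labelled Cd276KO, 27 response genes passed the filter, 3 higher and 23 lower in ID8 with a median log2 fold change of -1.68. Among all 13143 genes tested there, 5473 were called higher and 5532 lower. In controls 13 of 34 response genes were higher and 16 lower, against 28.8% and 29.6% of all genes tested. Gbp2 was at 1.72, 1.95 and 1.495 CPM in HM-1 and at 0.5601, 0.427 and 0.678 CPM in ID8 labelled Cd276KO (log2 fold change -1.66, SE 0.28), where HM-1 was the higher line, and Igtp at 0.525, 0.973 and 0.722 CPM in HM-1 and at 0.149, 0.249 and 0 CPM in ID8 (log2 fold change -2.37, SE 0.499), whose control call was lost under some alternatives. Cxcl1 was at 3.72, 3.28 and 3.403 CPM in HM-1 and at 0.0373, 0.0712 and 0 CPM in ID8 (log2 fold change -6.34, SE 0.402) and Bmp2 at 125, 123.24 and 110.3 CPM in HM-1 and at 16.4, 18.9 and 21.3 CPM in ID8 (log2 fold change -2.69, SE 0.07). For these genes the control direction is not one that both sets of libraries of the 2 lines share. These members were chosen after their values were seen.

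**Figure D5:**
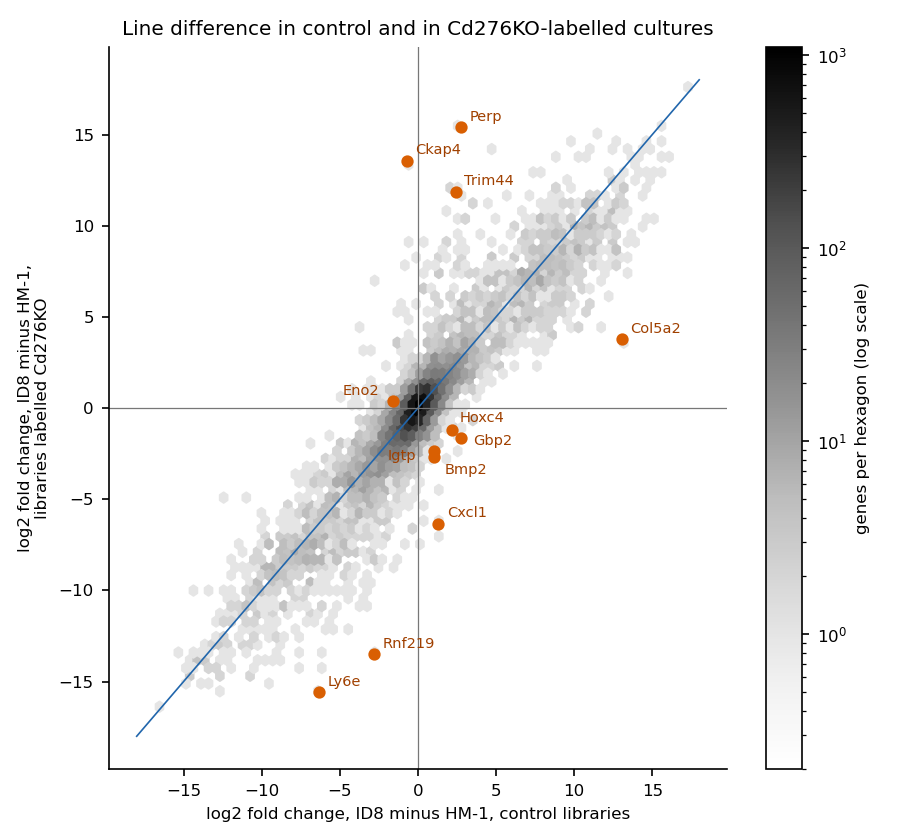
Log2 fold change of ID8 minus HM-1 in libraries labelled Cd276KO (vertical axis) against that in control libraries (horizontal axis) for 12929 genes tested in both, as counts of genes per hexagon, with the line of equal values in blue and 12 genes with a called interaction in orange. Most genes lie along the line, Ckap4, Perp and Trim44 lie above it, and Ly6e, Rnf219 and Col5a2 below it, and fitted values of genes with no count in one line depend on the prior count of the fit.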

How the data were processed

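Raw read counts per gene were deposited by the authors for each library, under versioned Ensembl identifiers. Reads were trimmed with Trim Galore, aligned with STAR to GRCm38 (mm10) and counted with HTSeq, as far as the submitters' processing notes name these tools. The sources used here give no tool version, annotation release or strand setting, so reads of overlapping or antisense genes cannot be told apart. Symbols, coordinates and lengths came from a GRCm38 annotation, in which 54723 of 54752 identifiers were found. The 3 ID8 control and 3 HM-1 control libraries, at 17631035 to 30959773 counts, were fitted with edgeR 4.0.16 in R 4.3.3 (filterByExpr, TMM scaling, robust quasi-likelihood test). P-values were adjusted by Benjamini-Hochberg over all genes tested, with a threshold of 0.05. The standard error is the log2 fold change divided by the square root of F. Libraries labelled Cd276KO were fitted alone in the same way, and the difference between the line contrasts in a fit over 12 culture libraries. DESeq2 1.42.0, limma 3.58.1 voom, other scalings, no filter, a replicate block, a test against 1.5-fold and leaving out libraries were alternatives. Each tool was also run on simulated counts in which replicates had the same spread, unlike HM-1 control library 1. No result here rests on that run.

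Genes were named by 4 rules: the 10 largest called differences in each direction among protein-coding genes of at least 50 CPM, up to 4 called members of each list with the largest difference and at least 5 CPM before members that define the list, the 8 most abundant line-restricted genes of each line, and the 3 highest and 3 lowest interaction genes of at least 20 CPM. The members and lists were chosen with earlier results of these data known. Some list members are counted but not reported here by name. RPKM was computed from counts, library totals and annotated gene lengths.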

Additional observations from a re-analysis of the deposited data

Results flagged for a closer look

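The line difference was not the same in the control and the Cd276KO-labelled cultures for 12 genes named here, by the interaction term of the edgeR quasi-likelihood fit over 12 libraries. Values are the log2 fold change among libraries labelled Cd276KO minus that among controls. The first 6 were named by rule. Ckap4 had 14.37 (SE 0.24, adjusted p = 6.31e-11), Perp 12.71 (SE 0.34, adjusted p = 9.74e-10) and Trim44 9.46 (SE 0.34, adjusted p = 8.11e-10). Rnf219 had -10.76 (SE 0.41, adjusted p = 1.28e-08), Ly6e -9.26 (SE 0.34, adjusted p = 9.74e-10) and Col5a2 -9.24 (SE 1.19, adjusted p = 5.53e-05). Ckap4 and Perp had no count in HM-1 libraries labelled Cd276KO and Rnf219 had none in those of ID8, so these fitted values depend on the prior count.

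The other 6 were list members chosen after their values were seen. Cxcl1 had -7.66 (SE 0.46, adjusted p = 6.49e-08), Gbp2 -4.41 (SE 0.27, adjusted p = 7.32e-08) and Bmp2 -3.74 (SE 0.13, adjusted p = 8.11e-10). Igtp had -3.39 (SE 0.67, adjusted p = 0.00148), Hoxc4 -3.36 (SE 0.47, adjusted p = 0.000105) and Eno2, the neuronal enolase, 2.02 (SE 0.21, adjusted p = 9.51e-06). The calls of these 12 genes held under all alternatives run for the interaction.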

How the results depend on the processing

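Under the alternatives, 6882 to 10604 genes were called in the control comparison when single libraries were left out, and the higher end was without HM-1 control library 1. DESeq2 called 8887, edgeR without the filter 9134, limma voom with sample quality weights 10917 and a fit over 12 libraries 9466. A test against a 1.5-fold difference (edgeR glmTreat) called 4687. Among libraries labelled Cd276KO, 10796 to 11176 genes were called when single libraries were left out, and without the filter 4236 genes were lower in ID8 by over 2-fold, against 2569 with it. The interaction called 4941 to 7143 genes when single libraries were left out. With no count allowed in the other line, 72 genes were restricted to HM-1 and 86 to ID8. With up to 10 counts allowed, 171 and 280 were. DESeq2 and the fit without a filter also took in more low genes, which moved the median log2 fold change of all genes to -0.10 and -0.08 in controls and to -0.39 and -0.35 among libraries labelled Cd276KO, and the interaction median to -0.15 and -0.19.

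No direction turned among the 745 called genes that were listed or named, under the alternatives run. For these genes 10882 values under an alternative kept their side of the threshold and 289 did not, and among 30 list medians 370 values stayed within the spread and 20 moved. Replicate numbers are shared by the titles of both lines. Deviations of same-numbered libraries from the mean of their line correlated at 0.06, 0.38 and -0.34 in controls. Among libraries labelled Cd276KO they correlated at 0.07, -0.05 and -0.11. With 3 libraries in each line these correlations depend on each other, so they cannot show whether replicates were paired. With a replicate block 7638 genes were called in controls, 10982 among libraries labelled Cd276KO and 5260 for the interaction. Depth limits genes with few counts, whose folds are bounds or wide intervals.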

Other observations

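The line-restricted genes included neighbours in the genome. With no other annotated protein-coding gene between them, 11 pairs were restricted to ID8 and 2 to HM-1. The HM-1 pairs were Cldn6 with Cldn9, both claudins, and Pdx1 with Cdx2. Among the ID8 pairs were Osmr with Lifr, receptors of the interleukin-6 family, Evc with Evc2, which act at the base of the cilium, Hoxd9 with Hoxd8, Epdr1 with Sfrp4, and Ccnd2 with Parp11. These pairs were looked for after the values were seen, and no chance level was computed.

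The median number of CG pairs in the 300-base window was 15 in 81 HM-1-restricted genes, 19 in 147 ID8-restricted genes and 22 in 9591 genes tested, with 25th and 75th percentiles of 15 and 30 for the last. The counts are a description of sequence and were not tested.

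By chromosome, the median log2 fold change between control lines ran from -0.30 on chromosomes 7 and 12 to 0.21 on chromosome 16. On the X chromosome it was 0.16 in controls and -0.53 among libraries labelled Cd276KO. In the latter it was 0.50 on chromosome 19, -0.48 on chromosome 12 and -0.30 on chromosome 16, so such values were not particular to X.

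Of 212 genes restricted to ID8 in controls, 70 had over 3 counts in the HM-1 libraries labelled Cd276KO, at no more than 0.265 CPM, and 47 fell below 10 CPM in ID8 libraries labelled Cd276KO. Of 120 restricted to HM-1, 7 had over 3 counts in the ID8 libraries labelled Cd276KO, at no more than 0.813 CPM, and 27 fell below 10 CPM in HM-1.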
